A study of Mus with 8 samples.

Results

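The genes described here are 40 genes of skeletal muscle fibres, coding for the sarcomere, calcium handling and energy supply. They were chosen by name, with earlier results of these tumours known, and probes were assigned to them through RefSeq transcripts. All 40 were found among 22911 named genes on the array, and each is given by its probe with the highest mean. The tumours were grown under the skin of mice from MC38, a colon cancer cell line of the mouse that was used alike in both hosts, and were taken out 25 to 30 days after transplantation. The 4 WT host mice were wild-type B6, for which the labels name neither a floxed allele nor a Cre, and the 4 Ext1S100a4Cre host mice carried Ext1 flox/flox with S100a4-Cre. Ext1 codes for an enzyme that builds heparan sulfate chains, and S100a4 is active in fibroblasts but also in some immune cells. The labels used here give neither the age nor the sex of the mice. RNA came from whole tumours and 0.5 µg was labelled with Cy3, so host cells of every kind were measured together with the cancer cells. The study asked, by its title, how loss of heparan sulfate in fibroblasts bears on colon tumour growth. WT host tumours 1 to 4 are written W1 to W4, and Ext1S100a4Cre host tumours 1 to 4 are written E1 to E4.

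A skeletal muscle fibre is filled with sarcomeres, in which thick filaments of myosin slide along thin filaments of actin between Z-discs. Calcium released from the sarcoplasmic reticulum binds troponin on the thin filament and starts the contraction, and pumps then return it to the store. Fast fibres, slow fibres and immature fibres make the same parts from different genes, so that each fibre type can be recognised by its isoforms. In mice, a thin sheet of skeletal muscle lies in the skin.

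Levels are given as log2 of the processed spot intensity minus the log2 of the array's 75th percentile, so that 0 is the 75th percentile of that array. That percentile lay between 846.9 (E4) and 1265 (W2) intensity units, and 65.7% (E1) to 71.1% (W2) of probes were well above background. Within an array, spots of 296 bright probes printed 10 times had a median SD of 0.037 to 0.042 on the log2 scale. Of 10 markers of intestinal epithelium, 9 were well above background in each of the 8 tumours, the cytokeratins Krt8 and Krt18 among them, while Cdh17, an intestinal cadherin, was so in 0. Ext1 itself was at -0.55, -0.28, 0.24 and -0.14 in W1 to W4 and -0.62, -0.27, -0.54 and -0.42 in E1 to E4, and these ranges overlapped. E1 and E4 stood apart from the other 6 tumours in 4 Y-linked genes, which were well above background in W1 to W4, E2 and E3 and not in E1 and E4. Eif2s3y, for example, was at -2.08, -1.68, -0.40 and -2.25 in W1 to W4 and -8.53, -1.14, -1.93 and -8.15 in E1 to E4. The X-linked gene Xist was well above background in E1 and E4 only, at -6.26 and -4.29. The summed level of 10 fibroblast markers, in multiples of the 75th percentile, was 12.8 in E1 and 56.8 in E4, and 96.6 or more in each of the other 6.

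Most of the 40 muscle genes were high in E2 and E3 and low in the other 6 tumours. In both E2 and E3, 40 of 40 were well above background, against 30 to 32 in the WT host tumours, 28 in E1 and 30 in E4. Against the mean of the WT host tumours, the median of the 40 genes was 4.03 higher in E2 and 4.03 higher in E3 on the log2 scale, 0.29 higher in E4 and 0.0012 higher in E1. The summed level of the 40 probes was 7.49 to 11.3 in W1 to W4, 12.2 in E1, 62.5 in E2, 83.9 in E3 and 14.0 in E4. In 35 of 40 genes E2 and E3 each lay above all of the other 6 tumours, and in 31 by at least 2-fold. Among all 31281 genes and transcripts, 3.85% had E2 and E3 above the other 6, and 0.253% by at least 2-fold. The list was proposed with this pattern in view, so these shares are background and no test. The exceptions were Tnni1, Tnnt1, Myl2, Pvalb and Eno3, which are described below with their groups. In whole-tumour RNA, more muscle cells and more RNA per cell cannot be told apart. E2 and E3 were also the tumours of their host with Y-linked genes well above background. The muscle split and the Y-linked split therefore cannot be told apart within that host.

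**Figure D1:**
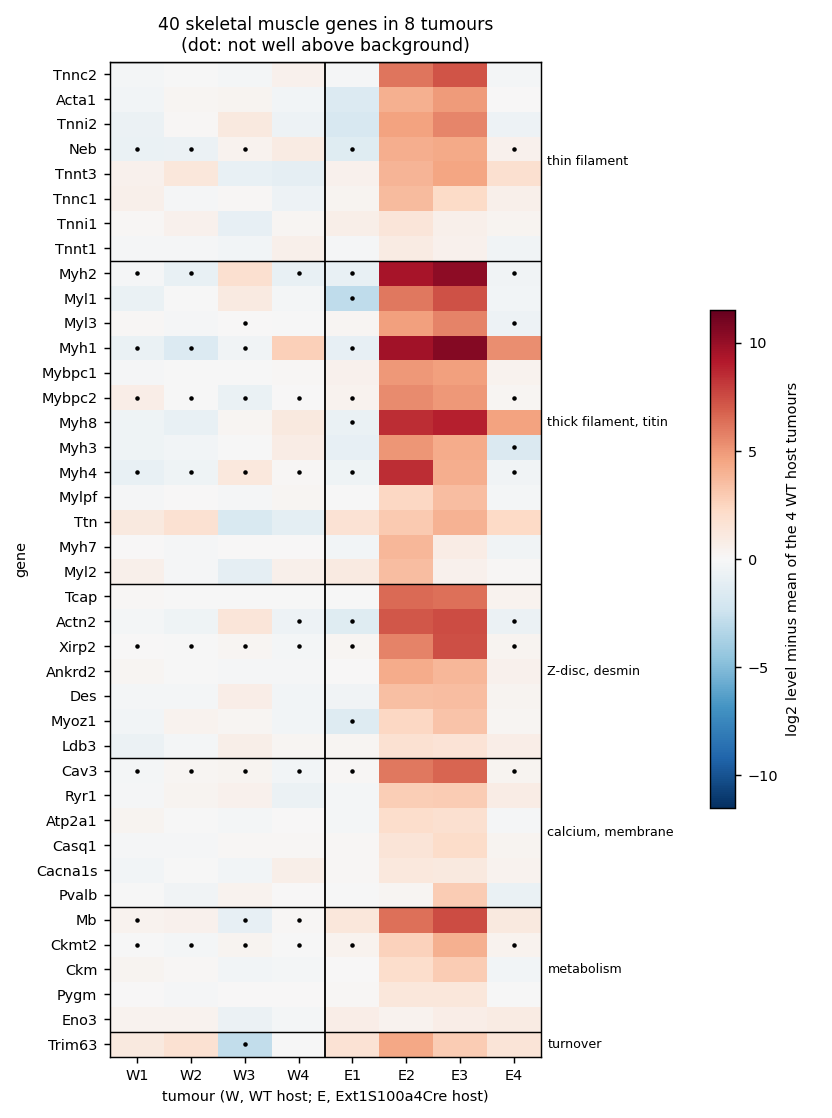
Log2 level of 40 muscle genes (rows, by role) in 8 tumours (columns; W, WT host; E, Ext1S100a4Cre host), as the difference from the gene's mean over the 4 WT host tumours. Columns E2 and E3 are red in most rows, Myh1 and Myh8 are also red in E4, and dots mark values not well above background.

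In the thin filament, all 8 genes had a higher mean in the Ext1S100a4Cre host, and 6 of 8 were above the other 6 tumours in both E2 and E3. Acta1, skeletal muscle actin and the main protein of the thin filament, was between -2.83 and -2.17 in the WT host tumours, and -4.08, 1.59, 2.37 and -2.46 in E1 to E4. In intensity units, the same Acta1 probe read 164 in W1 and 5861 in E3. Nebulin (Neb), a giant protein that runs along the thin filament, was at -7.52, -7.49, -6.35 and -5.83 in W1 to W4 and -8.14, -2.61, -2.40 and -6.34 in E1 to E4. Neb was well above background in W4, E2 and E3 only. E1 held the lowest of the 8 values in both genes, so the hosts overlapped widely while E2 and E3 lay apart.

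Troponin, the calcium switch on the thin filament, has 3 subunits, each with a fast and a slow form. Among the fast forms, Tnnc2, the calcium-binding subunit, was between -4.38 and -3.63 in the WT host tumours, and -4.28, 2.06, 3.15 and -4.29 in E1 to E4. Tnni2, the inhibitory subunit, was between -3.50 and -1.73 in the WT host tumours, and -4.66, 1.83, 2.78 and -3.39 in E1 to E4. Tnnt3, which binds tropomyosin, was at -1.55, -0.72, -2.89 and -3.11 in W1 to W4 and -1.56, 1.88, 2.51 and -0.19 in E1 to E4. All 3 fast subunits were higher in E3 than in E2, and over the WT mean Tnnc2 was 72.0-fold higher in E2 and 154-fold higher in E3. Tnnt3 also differed among the other tumours, with W3 and W4 the lowest of the 8 and E4 above W2.

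The slow troponin subunits stood in the opposite order in E2 and E3. Tnnc1, slow troponin C, which heart muscle shares, was at -5.40, -6.17, -5.88 and -6.59 in W1 to W4 and -5.73, -2.34, -3.82 and -5.38 in E1 to E4. Tnni1, slow troponin I, was at 0.40, 0.78, -0.68 and 0.48 in W1 to W4 and 0.88, 1.61, 0.84 and 0.59 in E1 to E4. Tnnt1, slow troponin T, was at 1.01, 0.94, 0.85 and 1.68 in W1 to W4 and 1.02, 2.08, 1.62 and 0.74 in E1 to E4. All 3 were higher in E2 than in E3. Tnni1 in E3 lay below E1, and Tnnt1 in E3 lay below W4, so neither gene set both tumours apart. Tnni1 and Tnnt1 were near or above the 75th percentile in nearly all tumours, with W3 the lowest for Tnni1 and E4 for Tnnt1. The mean of Tnnt1 was 0.25 higher in the Ext1S100a4Cre host, and this direction turned with the unscaled values of the series matrix.

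Myosin heavy chains Myh3, Myh2, Myh1, Myh4 and Myh8 lie next to each other, in this order, on chromosome 11 and are closely similar in sequence, so the assignment of signal among them is uncertain. Myh2, Myh1 and Myh4 code for the motors of fast fibres. Myh2 was at -7.99, -8.74, -5.97 and -8.69 in W1 to W4 and -8.70, 1.61, 2.43 and -8.29 in E1 to E4, and it was well above background in W3, E2 and E3 only. Myh1 was at -8.57, -9.38, -8.26 and -5.10 in W1 to W4 and -8.80, 1.79, 2.69 and -2.51 in E1 to E4, and it was well above background in W4, E2, E3 and E4 only. Myh4 was at -9.04, -8.67, -6.95 and -8.02 in W1 to W4 and -8.65, 0.30, -3.95 and -8.55 in E1 to E4, and it was well above background in E2 and E3 only. All 3 were highest in E2 and E3, with E1 at a level of the WT host tumours that were not well above background. Myh1 in E3 was 1462-fold above the WT mean, a figure that rests on 3 WT values not well above background. Set against the dimmest signal that counts as well above background on the WT arrays, Myh4 was at least 139.9-fold higher in E2 and at least 7.34-fold higher in E3.

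Myh3 and Myh8, the embryonic and perinatal heavy chains, are made in developing and regenerating fibres. Myh3 was at -4.94, -4.81, -4.55 and -3.58 in W1 to W4 and -5.37, 0.59, -0.20 and -6.17 in E1 to E4. Myh8 was at -6.21, -6.53, -5.42 and -4.56 in W1 to W4 and -6.44, 2.79, 3.29 and -1.09 in E1 to E4. Both were highest in E2 and E3, with Myh3 higher in E2 and Myh8 higher in E3. Myh8 in E4 was also 3.46 above the highest WT host tumour, while Myh3 in E4 was the lowest of the 8 and not well above background. Myh7, the heavy chain of slow fibres and of heart, was at -3.82, -4.05, -3.89 and -3.84 in W1 to W4 and -4.19, -0.08, -3.07 and -4.30 in E1 to E4. In Myh7 the 6 other tumours lay close together, E3 stood 0.75 above the highest of them, and E2 stood far above E3.

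Light chains stiffen the lever arm of myosin and also come in fast and slow forms. Myl1, the fast essential light chain, was between -6.01 and -4.24 in the WT host tumours, and -8.17, 0.76, 2.04 and -5.57 in E1 to E4. Mylpf, the fast regulatory light chain, was at -2.26, -2.07, -2.22 and -1.93 in W1 to W4 and -2.20, 0.30, 1.44 and -2.35 in E1 to E4. Both fast light chains were higher in E3 than in E2. Of the light chains of slow fibres and heart, Myl3 was at -6.17, -6.51, -6.27 and -6.41 in W1 to W4 and -6.09, -1.60, -0.66 and -6.90 in E1 to E4. Myl2 was at -3.11, -3.82, -4.69 and -3.04 in W1 to W4 and -2.62, -0.13, -3.18 and -3.57 in E1 to E4. Myl3 followed the fast genes with its highest level in E3, whereas Myl2 was set apart in E2 only, and its E3 value lay below E1, W1 and W4.

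Myosin-binding protein C braces the thick filament, with a slow-type gene (Mybpc1) and a fast-type gene (Mybpc2). Mybpc1 was between -4.74 and -4.45 in the WT host tumours, and -4.09, 0.39, 0.12 and -4.26 in E1 to E4. Mybpc2 was at -7.22, -8.06, -8.77 and -7.94 in W1 to W4 and -7.63, -2.52, -3.03 and -7.78 in E1 to E4. Mybpc2 was well above background in E2 and E3 only, where it was at least 19.9-fold and at least 14.0-fold above the WT host. Titin (Ttn), the spring that joins the thick filament to the Z-disc, was at -2.35, -1.67, -5.17 and -4.61 in W1 to W4 and -1.76, -0.41, 0.52 and -1.17 in E1 to E4. E2, E3 and E4 were the highest 3 tumours for Ttn, and E1 came just below W2. As in Tnnt3, W3 and W4 were the lowest of the 8.

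At the Z-disc, all 7 genes, desmin included, were higher in E2 and E3 than in each of the other 6 tumours. Tcap, telethonin, which caps titin at the Z-disc, was at -4.60, -4.84, -4.85 and -4.81 in W1 to W4 and -4.79, 1.77, 1.60 and -4.39 in E1 to E4. Desmin (Des), the intermediate filament that links neighbouring Z-discs and is also made in smooth muscle, was at -4.03, -4.04, -3.08 and -4.09 in W1 to W4 and -4.19, -0.39, -0.24 and -3.50 in E1 to E4. Actn2, the actinin that crosslinks actin there, was between -6.73 and -4.74 in the WT host tumours, and -7.47, 1.03, 1.43 and -6.75 in E1 to E4. The 6 other tumours lay close together for Tcap, and E2 and E3 were 93.5-fold and 82.9-fold above its WT mean. For Des, W3 and E4 were the highest of the other 6.

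Myoz1, which binds calcineurin at the Z-disc of fast fibres, was at -6.27, -5.60, -5.72 and -6.31 in W1 to W4 and -7.48, -3.56, -2.73 and -5.75 in E1 to E4. Ldb3, a scaffold for actinin, was between -4.48 and -3.07 in the WT host tumours, and -3.57, -2.01, -2.21 and -3.00 in E1 to E4. Ankrd2, a stretch-responsive protein found mainly in slow fibres, was between -5.04 and -4.65 in the WT host tumours, and -4.89, -0.68, -1.10 and -4.47 in E1 to E4. Ldb3 had the narrowest gap of these 7 genes, with E3 0.79 above the next tumour, E4. Xirp2, an actin-binding protein of the intercalated disc and the myotendinous junction, was at -8.59, -8.75, -8.46 and -8.88 in W1 to W4 and -8.43, -2.95, -1.22 and -8.33 in E1 to E4. Xirp2 was well above background in E2 and E3 only, at least 14.7-fold and at least 48.8-fold above the WT host.

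**Figure D2:**
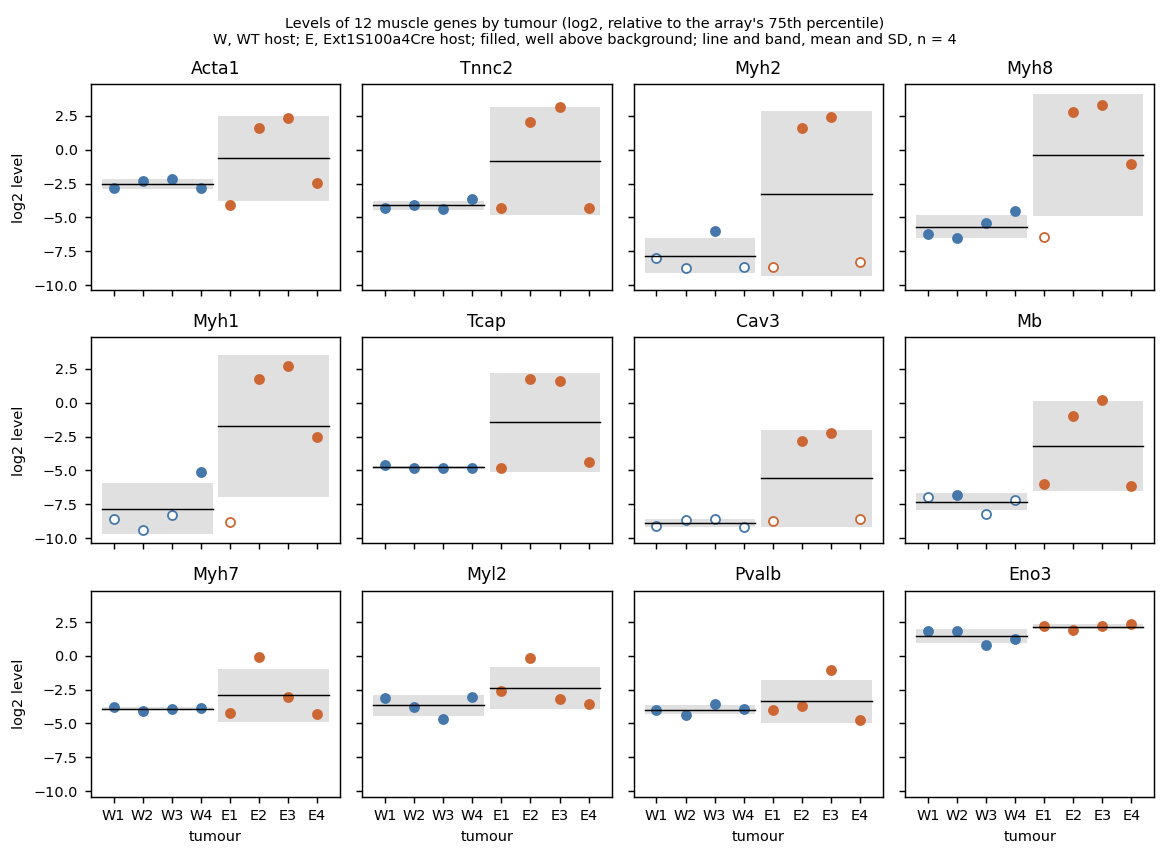
Log2 level, where 0 is the array's 75th percentile, of 12 muscle genes, with 1 point per tumour (W, WT host; E, Ext1S100a4Cre host); filled points are well above background, and the line and band are the mean and SD over the 4 tumours of a host. E2 and E3 lie above the other tumours in Acta1, Tnnc2, Myh2, Myh8, Myh1, Tcap, Cav3 and Mb, while Myl2 is set apart in E2, Pvalb in E3 and Eno3 in neither.

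The median difference between the hosts was 0.89 over the 5 calcium and membrane genes that were fitted, beside 1.88 over 7 thin filament genes and 2.53 over 10 thick filament genes. Cacna1s, the voltage sensor in the fibre membrane, was at 0.41, 0.63, 0.43 and 1.37 in W1 to W4 and 0.85, 1.96, 1.87 and 1.10 in E1 to E4. Ryr1, the channel through which calcium leaves the store, was at -4.47, -4.06, -3.86 and -5.01 in W1 to W4 and -4.54, -1.52, -1.41 and -3.53 in E1 to E4. Casq1, which holds calcium inside the store, was at -5.58, -5.56, -5.28 and -5.25 in W1 to W4 and -5.32, -3.98, -3.27 and -5.10 in E1 to E4. In all 3 genes E2 and E3 were the 2 highest tumours, and E4 or W4 came next. Atp2a1, the pump that returns calcium to the store of fast fibres, was between -5.28 and -4.73 in the WT host tumours, and -5.28, -3.03, -3.17 and -5.14 in E1 to E4. Its levels in E2 and E3 were 0.14 apart, and their order turned with the unscaled values.

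Parvalbumin (Pvalb), the soluble calcium buffer of fast fibres, was at -4.01, -4.38, -3.58 and -3.92 in W1 to W4 and -4.01, -3.71, -1.03 and -4.71 in E1 to E4. It was high in E3 alone, with E2 within the WT range. Cav3, the caveolin of muscle membranes, was at -9.12, -8.69, -8.55 and -9.16 in W1 to W4 and -8.71, -2.80, -2.20 and -8.61 in E1 to E4. It was well above background in E2 and E3 only, at least 16.3-fold and at least 24.7-fold above the WT host.

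Among the 5 genes of energy supply, 4 were set apart in E2 and E3. Myoglobin (Mb), the oxygen store of oxidative fibres, was at -6.93, -6.85, -8.22 and -7.19 in W1 to W4 and -5.99, -0.94, 0.23 and -6.16 in E1 to E4. It was well above background in W2 and in E1 to E4. The creatine kinase of the cytosol, Ckm, was between -5.10 and -4.43 in the WT host tumours, and -4.77, -2.80, -1.90 and -5.13 in E1 to E4. Its mitochondrial partner Ckmt2 was at -8.93, -9.13, -8.58 and -8.99 in W1 to W4 and -8.55, -6.30, -4.82 and -8.46 in E1 to E4, well above background in E2 and E3 only. Against the dimmest signal that counts as well above background on the WT arrays, Ckmt2 was at least 1.45-fold higher in E2 and at least 4.03-fold higher in E3. Its E2 level was close to that of Myl3 in W3 (-6.27), which was not well above background, so the figure for E2 is weak.

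Pygm, the phosphorylase that breaks down muscle glycogen, was at -3.43, -3.69, -3.49 and -3.45 in W1 to W4 and -3.40, -2.21, -2.22 and -3.57 in E1 to E4. Eno3, the muscle enolase of glycolysis, was at 1.87, 1.84, 0.80 and 1.25 in W1 to W4 and 2.18, 1.87, 2.22 and 2.38 in E1 to E4. Pygm set E2 and E3 apart by 1.18, and their values were nearly equal. Eno3 had another pattern: E4 was its highest tumour, E2 was level with W1 and W2, and W3 and W4 were the lowest. Trim63, a ubiquitin ligase that marks sarcomere proteins for breakdown during wasting, was at -4.55, -3.94, -8.55 and -5.70 in W1 to W4 and -4.04, -1.20, -2.79 and -4.19 in E1 to E4. Trim63 was highest in E2, and W3, not well above background, was far below all others.

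E2 and E3 differed from each other by fibre class. Of 11 fast-fibre genes, 8 were higher in E3, with a median difference (E3 minus E2) of 0.90, and Myh4, Mybpc2 and Atp2a1 were the exceptions. Of 7 slow-fibre genes, 6 were higher in E2, with a median of -0.77, and Myl3 was the exception. That median is the value of Tnni1, which like Tnnt1 and Myl2 did not set both tumours apart from the others. Mybpc1 was placed in no fibre class. Over all 40 genes 24 were higher in E3, and the median over all genes tested was 0.0011. The largest difference toward E3 was Pvalb (2.68), and those toward E2 were Myh4 (-4.25), Myl2 (-3.05) and Myh7 (-2.99). For Myh4 the sign rests on the probe, since its second probe read -5.07 in E2 and -4.30 in E3. Each of these compares 1 tumour with 1 tumour and has no replicate check.

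**Figure D3:**
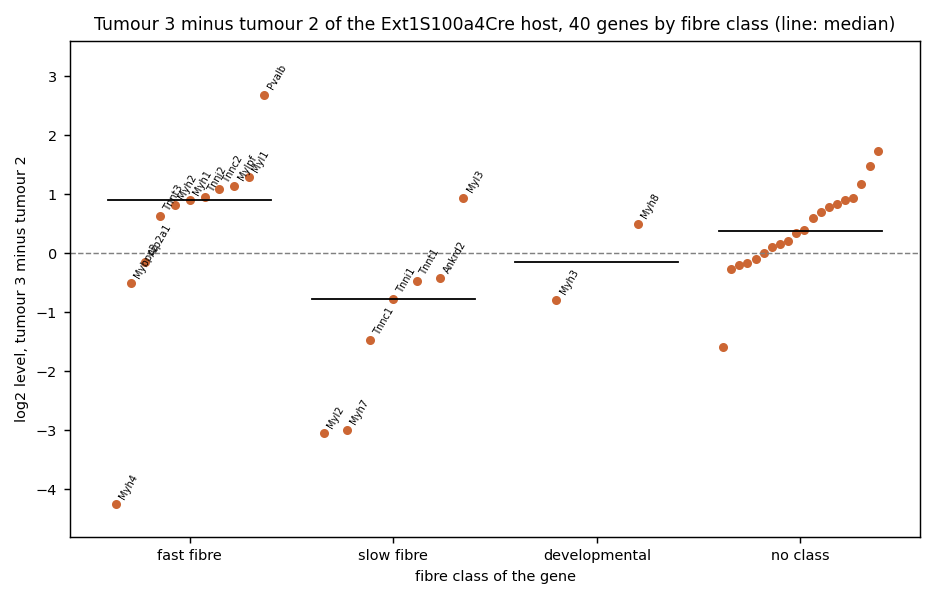
Log2 level in E3 minus that in E2 for each of 40 genes (points), by fibre class, with the class median as a line. Most fast-fibre genes lie above 0 (median 0.90), most slow-fibre genes below 0 (median -0.77), and Myh4 lies lowest at -4.25.

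E1 and E4, the other tumours of the Ext1S100a4Cre host, exceeded the highest WT host tumour in 9 and 15 of the 40 genes, beside 38.3% and 34.2% of all genes tested. The share of the 40 was thus below that of all genes tested in E1 and near it in E4. In E4, Myh1 and Myh8 were the 2 genes that exceeded the highest WT host tumour by 1 or more on the log2 scale (2.59 and 3.46), and in E1 there were 0 such genes. Over all genes tested, 0.352% exceeded it by this much in E4 and 0.297% in E1. Both lie in the myosin cluster, and Myh2 and Myh4, on either side of Myh1, were not well above background in E4. E1 was the lowest tumour of the 8 for Acta1, Neb, Tnni2, Myl1, Actn2, Myoz1 and Des.

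Between the hosts, all 40 genes had a higher mean in the Ext1S100a4Cre host, as did 58.1% of all genes tested. Of the 40, 33 were well above background on at least 4 arrays and entered limma's fit across 31281 genes and transcripts. Their median difference was 1.69 on the log2 scale, against 0.050 over all genes tested. With Benjamini-Hochberg adjustment, 0 of 33 passed 0.05, and 0 of all 31281 did (0%). At an unadjusted p under 0.05, 11 of 33 were higher, beside 4.39% of all genes, and 0 of 33 lower, beside 2.16% (6.55% in either direction). Of the 33, 3 (Mybpc1, Mb and Eno3) did not overlap between the hosts and were higher, beside 3.38%, and 0 did so and were lower, beside 1.14%. The same held for Xirp2 and Ckmt2, which were not fitted and whose lower values were not well above background. For Eno3 the groups were 0.0052 apart. The fitted difference of Myh1 was 6.12 (SE 2.40, n = 4 and 4), that of Myh8 5.31 (SE 1.98, n = 4 and 4) and that of Mb 4.08 (SE 1.47, n = 4 and 4). For Myh1 and Mb, 3 of the 4 WT host values were not well above background. Both genes entered the fit mainly through Ext1S100a4Cre host arrays, and both are among the 11 above, with Mb also among the 3 without overlap. With normexp background correction the differences were 3.77 for Myh1, 4.07 for Myh8 and 2.16 for Mb. Since this contrast was known when the genes were chosen, these values are a description. With E2 and E3 left out, a choice made after seeing the data, the median difference of the members was 0.18. That sets E1 and E4, without Y-linked genes well above background, against WT host tumours that had them. The host and this difference cannot be told apart there. Within the slide row of W1, W2, E1 and E2 the median difference was 1.63, and within that of W3, W4, E3 and E4 it was 1.77.

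Other probes gave a check of the patterns within each gene. 16 of the 40 genes had 20 further probes, of which 18 were well above background in both E2 and E3, and 15 of these were higher there than in each other tumour. The second probe of Ttn read -3.27, -2.73, -6.35 and -5.10 in W1 to W4 and -2.92, -1.81, -0.43 and -2.53 in E1 to E4. The second probe of Tnnt3 read -2.68, -1.67, -4.76 and -4.10 in W1 to W4 and -2.47, 1.15, 1.69 and -1.30 in E1 to E4. The third probe of Ttn was well above background in E2 and E3 only. The second probes of both genes repeated the low values of W3 and W4 as well as the high values of E2 and E3. The second probe of Mylpf read -3.98, -3.88, -3.85 and -3.38 in W1 to W4 and -3.73, -3.85, -3.70 and -3.79 in E1 to E4, and it did not set E2 and E3 apart. The second probes of Tnni1 and Tnnt1 left both genes without a gap, as their first probes did, and those of Myh3 and Myh8 were well above background on no array.

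**Figure D4:**
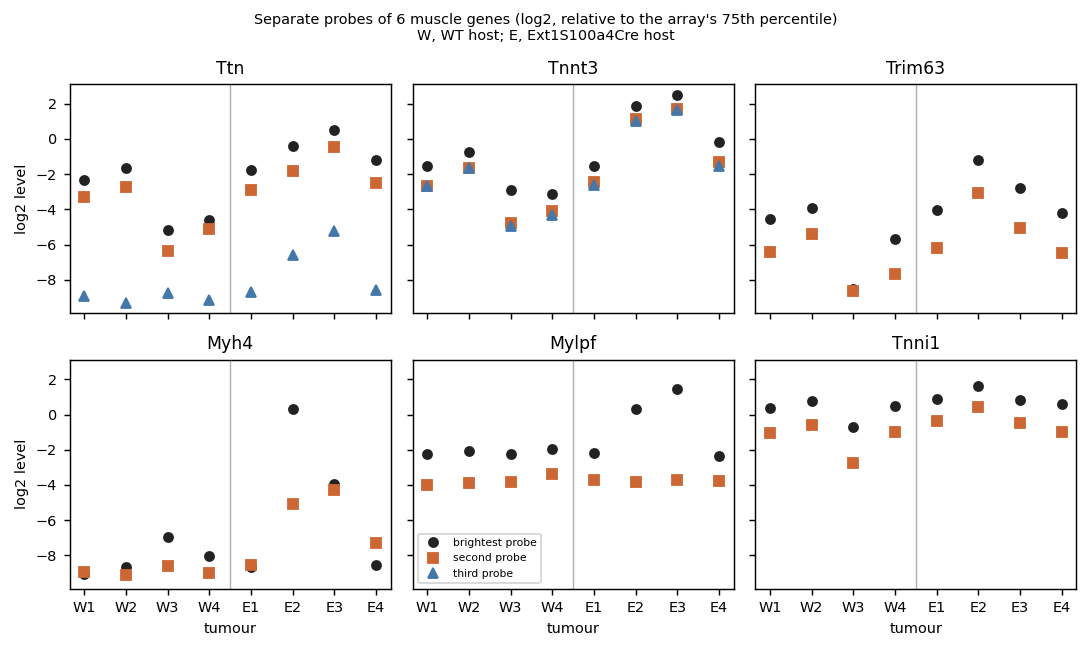
Log2 level, where 0 is the array's 75th percentile, of each probe of 6 genes in the 8 tumours (W, WT host; E, Ext1S100a4Cre host), with a symbol per probe; levels are not compared between probes. The brighter 2 probes of Ttn and those of Tnnt3 and Trim63 share their pattern, the third of Ttn is well above background in E2 and E3 only, the second probe of Mylpf is flat, and those of Myh4 differ in the order of E2 and E3.

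A further list of 44 muscle genes outside the 40 was read in the same way. In 27 of all 44, fitted or not, E2 and E3 were above the other 6 tumours, beside 3.85% of all genes tested. A higher mean in the Ext1S100a4Cre host was found in 37, beside 58.1%. Of the 29 that entered limma's fit, 22 were higher and 7 lower, and 0 passed the adjusted threshold. At an unadjusted p under 0.05 in that fit, 8 of 29 were higher, beside 4.39% of all genes tested, and 0 lower, beside 2.16%. Without overlap between the hosts, 5 of 29 were higher, beside 3.38%. Their median difference was 0.60, and 0.16 without E2 and E3. Myom2, a protein of the M-band, was at -8.29, -8.78, -6.86 and -8.95 in W1 to W4 and -8.51, -0.79, 0.48 and -8.42 in E1 to E4. Sarcolipin (Sln), which inhibits the calcium pump, was at -9.06, -9.09, -8.68 and -9.10 in W1 to W4 and -5.85, 0.16, -0.10 and -8.56 in E1 to E4. Csrp3, a stretch sensor at the Z-disc, was between -9.35 and -8.80 in the WT host tumours, and -8.77, -1.85, -0.58 and -8.66 in E1 to E4, and Trdn, triadin of the calcium release complex, was between -9.16 and -8.61 in the WT host tumours, and -8.56, -2.42, -1.20 and -8.49 in E1 to E4. All 4 were well above background in E2 and E3, Sln in E1 too, and none in a WT host tumour.

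The regulators that make muscle cells were less uniform. Of 14 regulators and immature-muscle genes, 13 were well above background in E2 and in E3 and 8 to 11 in the other 6. E2 and E3 were the highest tumours in 7 of all 14, fitted or not, beside 3.85% of all genes tested. Myogenin (Myog), which drives myoblasts to differentiate, was at -6.79, -6.91, -7.76 and -7.02 in W1 to W4 and -6.52, -3.95, -2.55 and -7.81 in E1 to E4, well above background in E2 and E3 only. Myf6, a factor of mature fibres, was at -8.35, -8.46, -7.07 and -7.08 in W1 to W4 and -6.02, -3.25, -3.94 and -6.70 in E1 to E4. Chrng, a receptor subunit of fetal and denervated muscle, was at -7.15, -6.94, -8.73 and -8.27 in W1 to W4 and -7.38, -5.42, -3.40 and -7.15 in E1 to E4. Mymx, which fuses myoblasts, was at -2.10, -1.73, -5.44 and -3.05 in W1 to W4 and -0.53, 0.71, 0.28 and -0.46 in E1 to E4, with all 4 Ext1S100a4Cre host values above the 4 WT host values. Of the 10 that entered the fit, 4 were higher and 6 lower in the Ext1S100a4Cre host, with a median difference of -0.23. In limma's fit 0 of the 10 passed the adjusted threshold. At an unadjusted p under 0.05 in that fit, Mymx was higher, 1 of 10 beside 4.39% of all genes tested. Pax3 was lower, 1 of 10 beside 2.16%. Pax3, a factor of muscle precursors that was named after its values were seen, was at 1.38, 0.91, 0.64 and 1.57 in W1 to W4 and 0.84, 0.15, 0.84 and 0.10 in E1 to E4, with a difference of -0.64 (SE 0.27, n = 4 and 4). Myf5, another precursor factor, was well above background in 0 of 8 tumours.

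Genes of other cell types were set beside the 40 by tumour, and their part in the muscle pattern was not tested. Of 8 heart genes 7 were well above background on 7 or more arrays. The summed level of the 8 was 4.41 to 12.4 in the WT host and 6.10 to 8.26 in the Ext1S100a4Cre host. Of the 8, 1 was highest in E2 and E3, beside 3.85% of all genes tested. It was Tnnt2, which immature skeletal muscle also makes. Ryr2, the calcium channel of heart, was well above background in 0 of 8 tumours. Of 9 smooth muscle genes 7 were detected in every tumour, and their summed level was 15.2 to 22.3 in the WT host and 9.37 (E1), 11.8 (E2), 18.9 (E3) and 18.7 (E4) in the Ext1S100a4Cre host. Neither list had E2 and E3 as its 2 highest tumours.

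Adipocyte genes were high by summed level in E2 and E3 as well, but also in W3, where the 40 muscle genes were not. The summed level of 8 adipocyte genes was 4.48, 5.55, 24.2 and 4.57 in W1 to W4 and 1.33, 21.1, 59.9 and 2.94 in E1 to E4. In 2 of the 8, E2 and E3 were both above the other 6 tumours, beside 3.85% of all genes tested, and Lep was nearly level in all 8 tumours. Cfd, adipsin, was at -6.95, -5.38, 3.36 and -2.24 in W1 to W4 and -7.32, 2.96, 5.27 and -7.17 in E1 to E4. Adiponectin (Adipoq) was at -7.68, -7.39, -0.16 and -5.93 in W1 to W4 and -8.09, -2.68, 0.41 and -8.49 in E1 to E4. Of 5 brown fat genes, Ucp1, which defines that tissue, was well above background in 1 of 8 tumours. The summed levels of the 5, with Cox8b also among the 44 muscle genes, were 0.0946 to 0.191 in the WT host and 0.0888, 0.508, 0.648 and 0.103 in E1 to E4. Brown fat genes thus had their 2 highest sums in E2 and E3. In 2 of the 5, Cidea and Cox8b, both tumours were above all others, beside 3.85% of all genes tested. Ppargc1a and Elovl3 were instead highest in W3, at -2.99 and -5.05. In E2 and E3, Ppargc1a was at -6.43 and -5.11, and Elovl3 was at -6.79 (not well above background) and -5.77. Cidea, a lipid droplet protein of brown fat that is in no muscle list, was at -3.61, -3.92, -5.50 and -4.69 in W1 to W4 and -3.83, -1.99, -2.42 and -3.58 in E1 to E4, highest in E2 and E3.

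**Figure D5:**
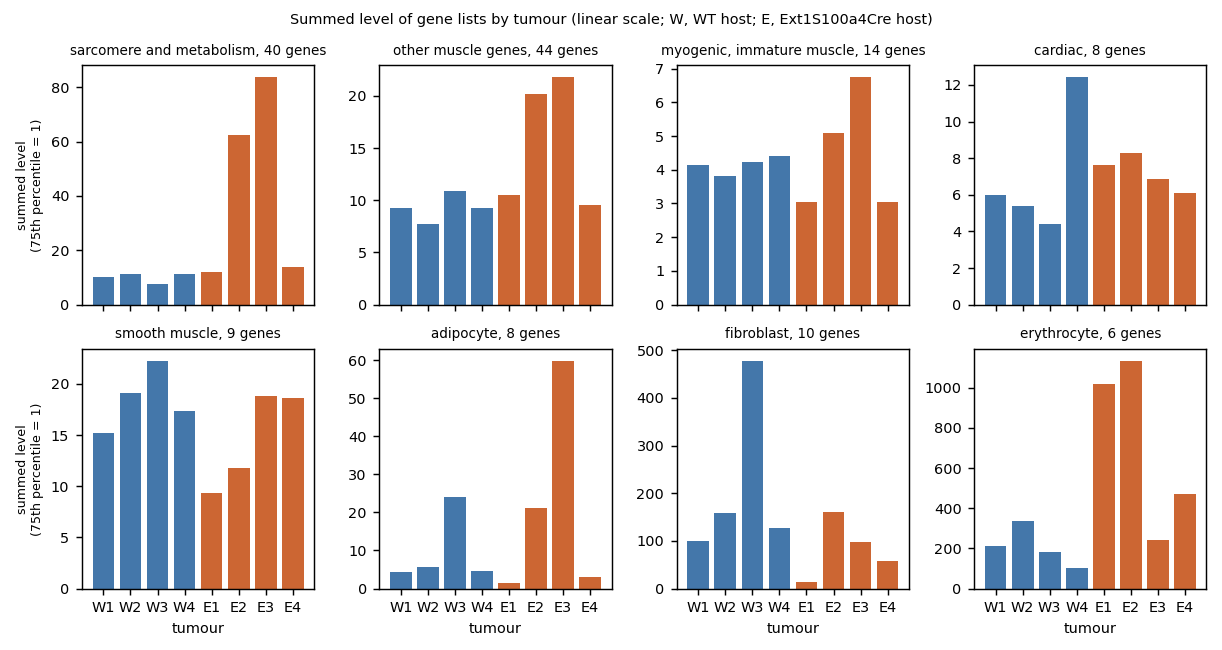
Summed level of 8 gene lists in each tumour (bars; W, WT host; E, Ext1S100a4Cre host), on a linear scale in multiples of the array's 75th percentile. The 40 muscle genes reach 62.5 in E2 and 83.9 in E3, adipocyte genes are high in W3, E2 and E3, and red cell genes in E1 and E2.

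Of 9 skin genes measured, 4 or 5 were well above background in each tumour, with summed levels of 1.49 to 3.06 in the WT host and 1.64 to 2.20 in the Ext1S100a4Cre host. The keratin Krt1 was well above background in 0 of 8. The 8 nerve and Schwann cell genes summed to 10.9 to 17.4 in the WT host and 9.11, 14.2, 8.94 and 9.87 in E1 to E4, with W3 the highest. None of these lists set E2 and E3 apart. The 6 red cell genes measured summed to 102 to 334 in the WT host and 1016, 1134, 241 and 470.0 in E1 to E4, so that E1, low in muscle genes, was near E2. The 6 endothelial genes summed to 4.24 to 5.92 in the WT host and 1.71, 4.35, 4.26 and 5.53 in E1 to E4. By summed level, E2 and E3 were above the other 6 tumours in the 40 genes as a whole and in the 44 further muscle genes. The same held for the 14 regulators and immature-muscle genes and for the brown fat genes. Gene by gene it held in 35 of the 40, 27 of the 44, 7 of the 14 and 2 of the 5 brown fat genes. Mymx, Myl4 and Pax3 weigh most in the sum of the 14 in E2 and E3, and Pax3 was not highest there. Among the 40 the energy-supply genes were an exception by summed level, with 4.68, 4.56, 6.35 and 5.34 in E1 to E4. Most of that sum is Eno3, and the other 4 genes each had E2 and E3 highest. The summed levels of heart, smooth muscle, skin, nerve, red cell, endothelial and fibroblast genes did not have E2 and E3 as their 2 highest tumours.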

How the data were processed

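Scanner files of 8 one-colour Agilent arrays, 1 per tumour, were used, with 62976 spots each, 3671 of them controls, and 56605 probes. The deposited spot intensities came from Agilent Feature Extraction 10.7.3.1, per the file headers, with background subtracted and detrended; the submitters' processing notes name version 9.1. Other deposited columns are flags of 0 or 1 for spots well above background, saturation and outliers. The series matrix held the same deposited intensities, equal within 0.01% for 100% of single-spot probes, with no scaling between arrays.

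Processed intensities were put on the log2 scale, and each array was set to 0 at its own 75th percentile over non-control spots. Spots flagged as outliers (53 to 132 per array) were left out, 0 were saturated, and repeated spots were averaged. A probe was fitted if 4 or more of the 8 arrays had it well above background, and a gene was represented by its fitted probe of highest mean. Names came from a RefSeq table of GRCm38.p6 (32994 probes, 22911 genes); the headers name another build, so no coordinates are given. Both hosts were fitted in limma 3.58.1, R 4.3.3 (two-sided, no covariates, Benjamini-Hochberg over 31281 genes and transcripts, threshold 0.05), checked on simulated data. Folds for genes not well above background in any WT host tumour are given as lower bounds. They were taken against the dimmest signal that counts as well above background on each WT array, or the probe's own signal where higher. Some signals that do not count as well above background lie above that dimmest signal, so the bounds hold only against it. A summed level adds the unlogged levels of a list.

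The members and the lists were chosen with earlier results of these data known. Values by tumour were given in full for the 2 brightest and the dimmest fitted genes of each role and fibre class, for genes not fitted and for those with another pattern; from each context list at most 4 genes of the widest range were named with values, and further genes were named for what they define. Other scalings, background correction, filters, probes, blocks, left-out tumours and E2 and E3 left out together were tried. Precision is limited by the number of arrays and by how far a probe lies above background. Protein and promoter sequences were not used here.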

Additional observations from a re-analysis of the deposited data

Results flagged for a closer look

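Each of the 40 genes was examined in each host group for a tumour far from the other 3, which gave 80 groups. Chance alone marks about 1 group in 20, and 2 were marked. Tcap in W1 was at -4.60, above the other WT host tumours by 0.832 of the group's range, just past Dixon's critical value. Des in W3 was at -3.08, above the others by 0.936 of the range.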

How the results depend on the processing

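The median difference of the members stayed above 0 in every alternative run, from 1.04 to 2.43, and was 0.18 with E2 and E3 left out together. The count of genes called over the whole array was 1 with normexp background correction and 0 to 2 when each tumour was left out in turn (2 without W3), none of them a member, and 0 in all other alternatives. Members without overlap between the hosts were 3 of 33 as reported, beside 4.52% of all genes in either direction. Of the same 33 they numbered 11 with normexp (5.64%) and 1 with the unscaled series matrix (4.84%). With quantile scaling (4.23%) and median centring (2.91%) they numbered 5 of 33 each. With no filter (3.73%) and a filter on 2 arrays (4.45%) they numbered 5 of 40, Xirp2 and Ckmt2 among them. They numbered 11 and 15 within slide rows 1 and 2, where 36.8% and 33.7% of all genes did not overlap, and 6 with E2 and E3 left out (3 higher and 3 lower, beside 37.2%). When each tumour was left out in turn they numbered 3 to 13, beside 6% to 12% of all genes. Members at an unadjusted p under 0.05 in limma's fit, 11 as reported beside 6.55% of all genes, numbered 19 with normexp (8.67%) and 5 with the series matrix (8.72%). Within slide rows 1 and 2 they numbered 0 (5.63%) and 7 (4.84%). They numbered 2 without E2 (6.91%), 2 without E3 (9.48%), 25 without E1 (4.68%) and 18 without E4 (4.89%). Without W3 they numbered 4 (4.77%), and without each of W1, W2 and W4 they numbered 6 (5.23% to 6.86%). The cause was not tested, except that rows and left-out tumours hold fewer samples.

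The median of E3 minus E2 over fast-fibre genes was 0.96 with quantile scaling, 0.83 with median centring and 1.06 with the series matrix. Over slow-fibre genes it was -0.84 with median centring and -0.61 with the series matrix. Over the 2 developmental genes it was -0.21 and 0.019, so that sign depends on the scaling, as do the signs for Atp2a1, Cacna1s and Pygm. The series matrix moved the median difference of all genes from 0.050 to -0.20, and normexp moved it to 0.10. Whether E3 exceeded the other 6 tumours in Tnni1 also turned with the scaling. Of 750 alternative values for single members, 724 moved by less than the spread between replicates and 26 by more, and 18 differences were negative. That spread is the pooled SD within hosts, and it includes the gap of E2 and E3 from E1 and E4. For Myh1 the SD in the Ext1S100a4Cre host was 5.24. With so wide a spread, these counts cannot show that the values were stable.

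Tumours of the same replicate number had correlated deviations of 0.49, -0.16, 0.59 and -0.25, and 2 of 4 numbers were best partners. With 4 numbers this cannot settle whether replicate numbers pair the tumours, and the main fit used no pairing. With the replicate number as a block in limma's fit, 0 genes were called. In that fit 13 members had an unadjusted p under 0.05, beside 10.4% of all genes, against 6.55% without the block. The 7 members not fitted, and the low levels of Myh1 and Mb, are limited by brightness over background.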
